A study of Homo sapiens with 15 samples.

Results

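Heat shock proteins and chaperones are the proteins that fold, hold, refold or hand over other proteins, and the genes described here are 41 of them, from the heat shock factors and the HSP70, HSP110, HSP40, BAG, HSP90 and small heat shock protein families to the chaperonins. They were chosen by gene name on the array. Of the 41 genes, 39 had a probe under that name, and all 39 passed the filter on dim probes, out of 23016 gene names that passed it and 30484 on the array. HSPA1B and HSPB11 had no probe under those names. A549 cells, a long established line from a human adenocarcinoma of the lung, were used throughout. In each of 15 hybridizations, RNA from cells given a synthetic miRNA oligonucleotide (the mimic, labeled with Cy5) was set against RNA from cells given a locked nucleic acid antagomir of the same miRNA (labeled with Cy3). The miRNAs were miR-574-3p, miR-181d, miR-629*, miR-766 and miR-565, with 3 arrays each. All cells, on both sides of every array, had been transfected, at 20 nM by the labels, and RNA was taken at 24 h. Neither side is an untreated control. The dyes were never swapped. Within a ratio, the dye and the treatment therefore cannot be told apart, and what is shared by all arrays drops out only when one miRNA is set against the others. The labels do not say whether the 3 arrays of a miRNA are separate transfections, so that p-values measure the spread between these arrays, which may be technical.

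Most proteins need help to reach or to keep their folded form. HSP70 binds exposed hydrophobic stretches in a cycle driven by ATP, in which HSP40 (DNAJ) proteins deliver the client and start hydrolysis, and HSP110 and BAG proteins release the nucleotide. HSP90 takes over kinases and other signaling proteins with the help of cochaperones, small heat shock proteins hold unfolded chains without ATP, and the ring-shaped chaperonins enclose them. HSF1 is the transcription factor that induces many of these genes after heat or other proteotoxic stress, by binding inverted repeats of nGAAn in their promoters. Tumor cell lines usually express many of them without any stress.

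The mature sequences of the transfected miRNAs are shown because the seed, bases 2 to 8 and written here in capitals, decides which transcripts a miRNA can pair with. RefSeq (GRCh38.p14) held 3 of the 5 miRNAs under a matching name, and each of the 3 had a seed of its own.
miR-181d (chr19:13874910-13874932, plus strand): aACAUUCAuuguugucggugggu
miR-574-3p (chr4:38868092-38868113, plus strand): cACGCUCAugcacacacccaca
miR-629* (chr15:70079387-70079408, minus strand): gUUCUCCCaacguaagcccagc

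Between 68.1% (replicate 1 of miR-565) and 75.5% of the probes of an array were well above background in the mimic channel. The next lowest array was at 71.7%. The epithelial genes CDH1, KRT7, KRT8, KRT18 and KRT19 were well above background on all 15 arrays. PTPRC, PECAM1, CDH5, COL1A2 and MYH6, genes of leukocytes, endothelium, fibroblasts and muscle, were above background on 0 arrays. All 39 chaperone genes were well above background in both channels on all 15 arrays. Precision is limited by how few arrays there are. They lay on 4 slides. Slide 1 held miR-181d with miR-565 replicate 1, slide 2 the other miR-565 arrays with miR-574-3p replicates 1 and 2, and slide 3 miR-574-3p replicate 3 with miR-629*. Slide 4 held miR-766 alone, so that slide and miRNA cannot be told apart there.

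One array stood apart from all others, in the chaperone genes as over all genes. On miR-565 replicate 1, 20 of the 39 genes had a log2 ratio more than 0.5 away from their median over the other arrays, while on each other array this held for 0 or 1 gene. The standard deviation of this distance over the 39 genes was 0.91 on that array and 0.066 to 0.18 on the others. RNA was taken from whole cultures, in which fewer cells expressing a gene and less RNA per cell cannot be told apart. The share of all genes past 0.5 was not counted, so the 20 of 39 cannot be read as particular to the chaperone genes. The whole array was broad. Over all genes tested, the same standard deviation was 0.90, beside 0.27 to 0.46 elsewhere. Results below are therefore given with and without this array.

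**Figure D1:**
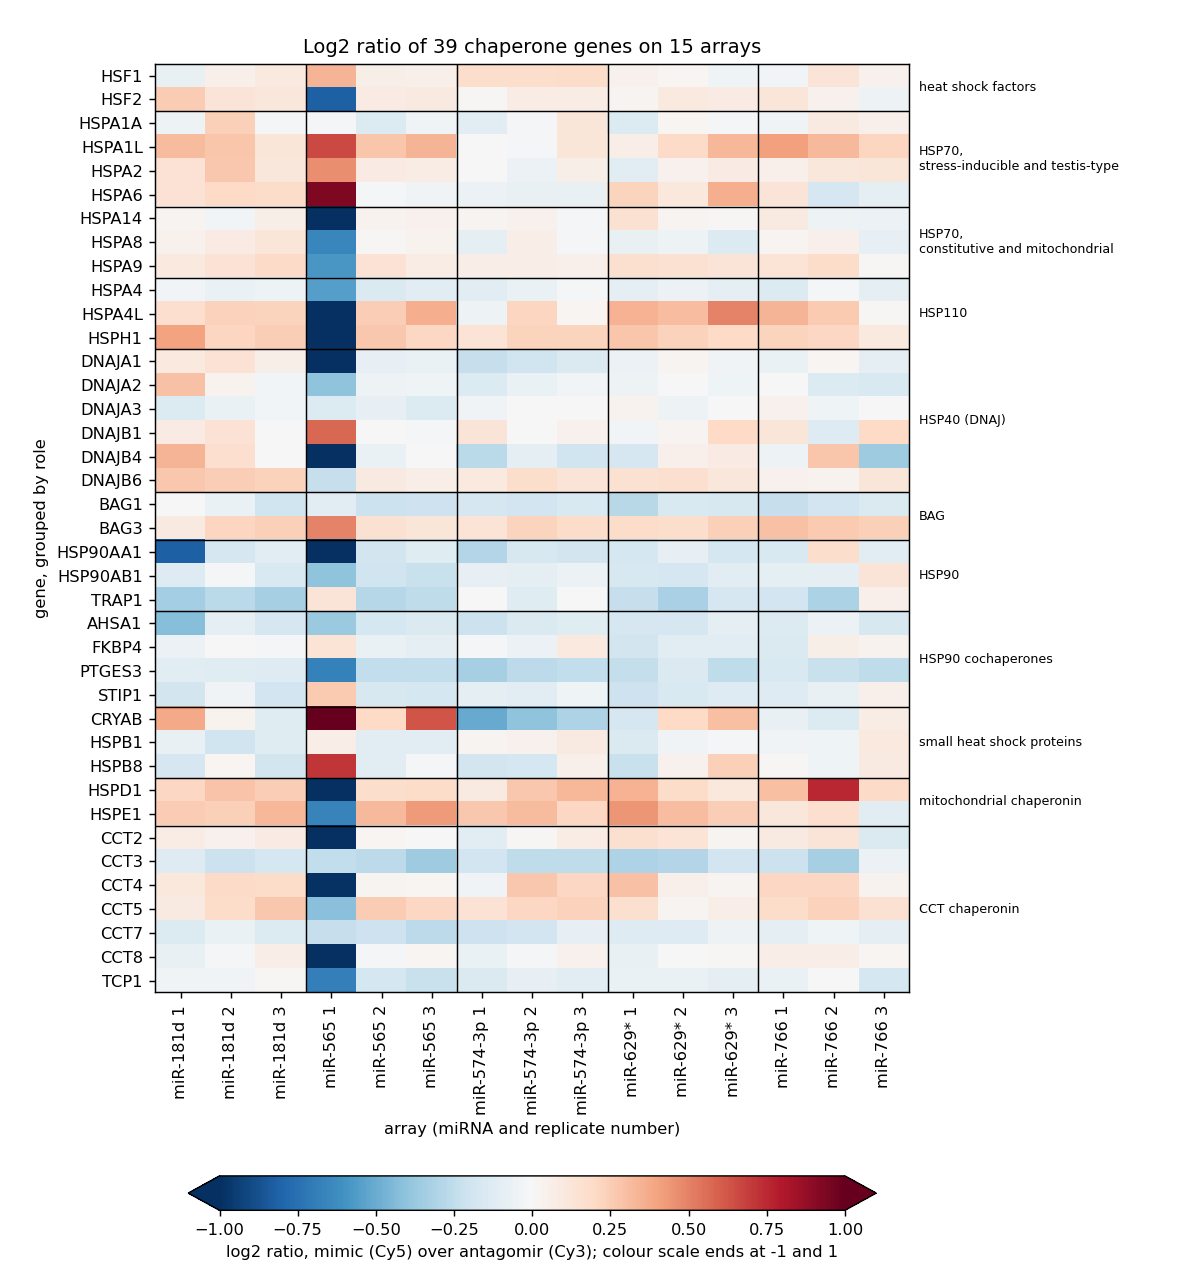
Log2 ratio of mimic to antagomir signal for the 39 chaperone genes (rows, grouped by role) on the 15 arrays (columns), in a color scale that ends at -1 and 1. The column of miR-565 replicate 1 stands out in both directions, while BAG3 is red and CCT3, PTGES3 and AHSA1 are blue across all 15 columns.

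On miR-565 replicate 1 the genes moved in both directions. HSP90AA1, which encodes the stress-inducible cytosolic HSP90, had the lowest log2 ratio, -3.40, and the other 3 probes of the gene gave -2.88 to -3.24. HSPA14 (-1.85), which encodes a ribosome-associated HSP70, DNAJB4 (-1.79) and HSPA4L (-1.68) followed. HSPH1, the classic HSP110, was at -1.31, DNAJA1, a cytosolic HSP40, at -1.25 and HSPD1, the mitochondrial HSP60, at -1.17. Not all subunits of the CCT ring, which folds actin and tubulin, were low alike. CCT2 (-1.35), CCT8 (-1.28) and CCT4 (-0.99) lay far below CCT3 (-0.25) and CCT7 (-0.23). At the other end stood CRYAB, the small heat shock protein alpha B-crystallin, at 1.18, HSPA6, an HSP70 made almost only under stress, at 0.94, HSPB8 at 0.71 and DNAJB1, the main stress-inducible HSP40, at 0.57. HSPA1A, the inducible HSP70 itself, was at -0.016 on the same array.

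The largest of these shifts lay in the mimic channel, but some genes were shifted in the antagomir channel too. Relative to the median of the other 14 arrays, HSP90AA1 on miR-565 replicate 1 was lower by 2.68 (log2) in the mimic channel. Its signal there was 7701, against 30160 to 52130 elsewhere, and in the antagomir channel it was higher by 0.35. HSPA6 (0.96) and CRYAB (1.07) were shifted upwards in the mimic channel as well. The antagomir channel of the 39 genes stayed between -0.12 and 0.43, with 4 genes above the 95th and 0 below the 5th percentile of all genes. HSPD1 was at 0.43 there and at -0.76 in the mimic channel, and CCT4 at 0.35 and -0.61. In the mimic channel, 7 of the 39 genes lay below -1, and so did 13.8% of all genes, and 2 genes lay below the 5th and 2 above the 95th percentile of all genes. The median of the 39 genes there was -0.19, against 0.17 over all genes. For the ratio, taken from the same medians, 10 of the 39 lay below -1, beside 14.8% of all genes, and 26 below 0, beside 43% of all genes, with medians of -0.36 and 0.13. The spread was thus shared by all genes, while the chaperone genes lay lower than the whole. Its cause was not tested.

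**Figure D2:**
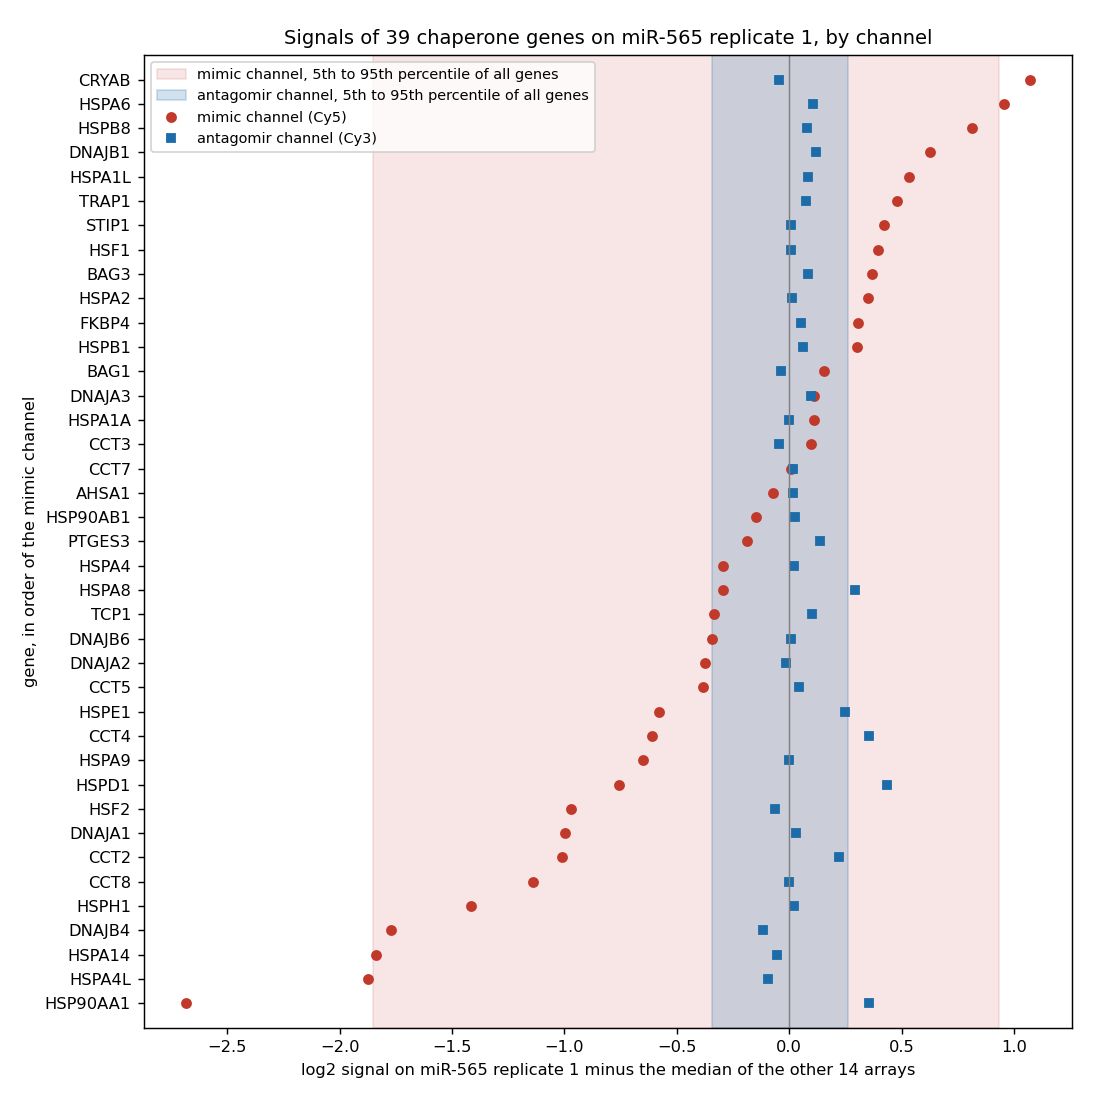
Log2 signal on miR-565 replicate 1 minus the median of the other 14 arrays, for the mimic channel (circles) and the antagomir channel (squares) of the 39 chaperone genes, with the 5th to 95th percentile of all genes as bands. The mimic channel runs from -2.68 for HSP90AA1 to 1.07 for CRYAB, while the antagomir channel stays between -0.12 and 0.43.

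Over all 5 miRNAs, the mean log2 ratio of the chaperone genes was small but often shared by all arrays. Each gene is read here by its brightest probe, and other probes are described below. With all 15 arrays in the fit, 17 of the 39 genes passed an adjusted p of 0.05 (limma, Benjamini-Hochberg over all probes tested), 7 with a higher and 10 with a lower signal in the cells given a mimic. Of all genes, 23.1% were higher and 18.5% lower in the same comparison, so that the chaperone genes were called about as often as any other gene. Without miR-565 replicate 1, 28 of the 39 genes passed, 13 higher and 15 lower, beside 31.8% and 26.2% of all genes. When slides were fitted as a random block, 0 of the 39 mean ratios passed in limma (7 at an unadjusted p below 0.05), beside 0.239% of all genes. The median of the 39 mean log2 ratios was -0.037, against 0.014 over all genes, and 0.00059 against 0.016 without miR-565 replicate 1.

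By role, in the fit without miR-565 replicate 1, all 3 HSP90 genes and all 4 HSP90 cochaperones among the 39 genes were lower and both mitochondrial chaperonin genes higher, beside 26.2% of all genes lower and 31.8% higher. With all 15 arrays this held for 2 of 3, 3 of 4 and 1 of 2, and for none of them with slides as a random block. Of 10 HSP90 cochaperones outside the 39 genes, 4 were higher and 4 lower in the fit without that array. PTGES3, the cochaperone that locks HSP90 on its client, had a log2 ratio below 0 on all 15 arrays, from -0.33 to -0.11 with a median of -0.24 on the 14 arrays and -0.67 on miR-565 replicate 1. Its mean log2 ratio was -0.24 (standard error, SE, of 0.029, limma adjusted p = 4.345e-05). AHSA1, which stimulates the ATPase of HSP90, ran from -0.43 to -0.057 on the 14 arrays and was at -0.37 on the remaining one, for a mean of -0.18 (SE 0.027, limma adjusted p = 0.000247). By the brightest probe, neither gene had a single array on the other side of 0, but the other PTGES3 probes crossed it.

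TRAP1, the mitochondrial HSP90, had a mean log2 ratio of -0.18 (SE 0.035, limma adjusted p = 0.00157), but not on every array, since it was above 0 on 3. HSP90AB1, the constitutive cytosolic HSP90, was at -0.12 (SE 0.023, limma adjusted p = 0.00123) and above 0 on 1 array. HSP90AA1 did not pass with all 15 arrays, at -0.40 with an SE of 0.19 (limma adjusted p = 0.117). Its large value rests on miR-565 replicate 1, without which it was -0.18 with an SE of 0.048 (limma adjusted p = 0.00599). On the 14 arrays it ran from -0.82 on miR-181d replicate 1 to 0.17 on miR-766 replicate 2, with a median of -0.16. STIP1, which links HSP70 to HSP90, had a mean of -0.09 (SE 0.032, limma adjusted p = 0.0397). FKBP4, an immunophilin cochaperone, was at -0.035 (SE 0.024, limma adjusted p = 0.27) and passed only without miR-565 replicate 1, at -0.049 (limma adjusted p = 0.0369).

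Among the mitochondrial chaperonin genes, HSPE1, the lid of the chamber, had log2 ratios of -0.11 to 0.44 on the 14 arrays, with a median of 0.26, and -0.67 on miR-565 replicate 1. HSPD1, which forms the chamber, ran from 0.093 to 0.76, with a median of 0.23, and was at -1.17 on that array. Each gene thus had 1 array far below all others. The mean of HSPE1 was 0.19 (SE 0.065, limma adjusted p = 0.0313), and 0.26 without the array (SE 0.024, limma adjusted p = 1.132e-06). For HSPD1 it was 0.17 (SE 0.087, limma adjusted p = 0.138) and 0.26 without the array (SE 0.039, limma adjusted p = 9.378e-05).

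HSPH1 behaved in the same way. It lay between 0.10 and 0.40 on all 14 other arrays, with a median of 0.22, and at -1.31 on miR-565 replicate 1. Its mean was 0.12 (SE 0.092, limma adjusted p = 0.303) with all arrays and 0.23 (SE 0.018, limma adjusted p = 3.517e-07) without that one. HSPA4L, its testis-enriched relative, was at 0.099 (limma adjusted p = 0.54) and 0.23 without it (limma adjusted p = 4.583e-05). The third HSP110 gene, HSPA4, went the other way, at or below -0.013 on all 15 arrays, with a mean of -0.11 (SE 0.029, limma adjusted p = 0.00944). No common direction of the 3 HSP110 genes was thus seen.

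BAG3 and BAG1, which both release nucleotide from HSP70, went in opposite directions. BAG3, a stress-inducible partner of HSPB8 in selective autophagy, had a log2 ratio above 0 on all 15 arrays, from 0.089 to 0.29 with a median of 0.20 on the 14 arrays and 0.50 on miR-565 replicate 1. BAG1, which ties HSP70 to the proteasome, was below 0 on all 15, from -0.28 to -0.0019. The mean log2 ratio was 0.22 for BAG3 (SE 0.028, limma adjusted p = 7.952e-05) and -0.16 for BAG1 (SE 0.020, limma adjusted p = 4.094e-05).

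By the brightest probe of each gene, BAG3 was the only one of the 39 above 0 on all 15 arrays, a property of 6.10% of all genes. AHSA1, BAG1, CCT3, CCT7, HSPA4 and PTGES3 were below 0 on all 15, beside 2.41% of all genes. Without miR-565 replicate 1, CCT5, DNAJB6, HSPA9, HSPD1 and HSPH1 joined BAG3 above 0 (10.8% of all genes), and the same 6 genes remained below 0 (6.25% of all genes). CCT3 and CCT7 are 2 of the 7 CCT subunits described. CCT3 had the lowest mean ratio of the CCT genes, -0.23 (SE 0.021, limma adjusted p = 4.411e-06), with -0.35 to -0.062 on the 14 arrays and a median of -0.23. CCT7 (-0.14) and TCP1 (-0.13), the founding subunit, were also lower, while CCT5 was higher at 0.13 (limma adjusted p = 0.0227). CCT2, CCT4 and CCT8 did not pass with all arrays. The subunits stand side by side in the same ring, but their transcripts did not share a direction here.

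**Figure D3:**
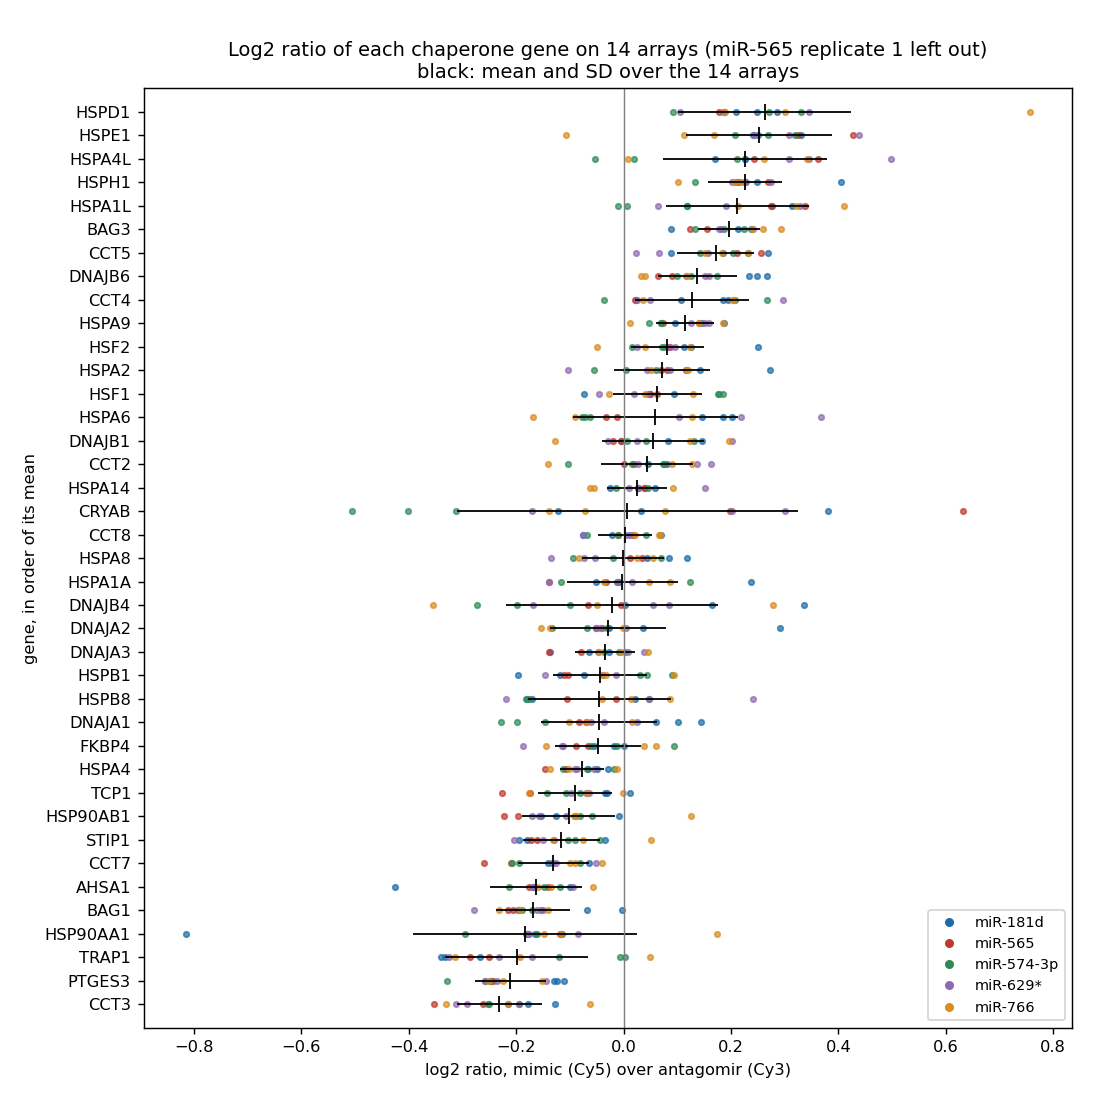
Log2 ratio of mimic to antagomir signal of each of the 39 chaperone genes on the 14 arrays other than miR-565 replicate 1 (points, colored by miRNA), with the mean and SD over the 14 arrays in black. HSPD1 and HSPE1 stand at the top with means of 0.26 and 0.25, CCT3 and PTGES3 at the bottom with -0.23 and -0.21, and the miR-574-3p points of CRYAB and DNAJA1 lie to the left of the others.

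The classic heat-inducible HSP70 and HSP40 genes did not pass the test. HSPA1A had a mean log2 ratio of -0.0035 (SE 0.026, limma adjusted p = 0.929), with -0.14 to 0.24 on the 14 arrays and a median of -0.012. HSPA6 was at 0.12 (SE 0.067, limma adjusted p = 0.175) and DNAJB1 at 0.089 (SE 0.044, limma adjusted p = 0.122). HSPA8, the constitutive HSP70 of the cytosol, was at -0.044 (SE 0.043, limma adjusted p = 0.429) and HSPB1, the major small heat shock protein of epithelial cells, at -0.037 (SE 0.021, limma adjusted p = 0.172). None of these 5 passed in limma with all 15 arrays, and without miR-565 replicate 1 only HSPB1 did, at -0.048 (limma adjusted p = 0.0244). Both genes of HSP70 proteins found mainly in testis were higher, HSPA1L at 0.24 (SE 0.042, limma adjusted p = 0.000604) and HSPA2 at 0.098 (limma adjusted p = 0.0264).

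HSF1, the main heat shock factor, had a mean log2 ratio of 0.081 (SE 0.025, limma adjusted p = 0.018), and HSF2 of 0.022 (limma adjusted p = 0.78). On the 14 arrays HSF1 ran from -0.073 to 0.19, and its 3 miR-574-3p arrays (0.18, 0.18 and 0.19) were the highest of them. Of the HSP40 genes, DNAJB6, which keeps polyglutamine proteins from aggregating, was the only one to pass with all arrays, at 0.11 (SE 0.024, limma adjusted p = 0.00273).

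Taken miRNA by miRNA, 2 to 11 of the 39 genes passed. For miR-181d, 4 did. DNAJB6 was higher, at log2 ratios of 0.27, 0.25 and 0.23 on the 3 arrays (mean 0.25, SE 0.054, limma adjusted p = 0.0192), when 3.68% of all genes were higher. TRAP1 (-0.34, -0.27 and -0.33), AHSA1 (-0.43, -0.10 and -0.17) and CCT3 (-0.13, -0.22 and -0.18) were lower, beside 2.69% of all genes. The limma adjusted p was 0.0334 for TRAP1, 0.0383 for AHSA1 and 0.0431 for CCT3. The other classic heat shock genes (HSPA1A, HSPA6, HSPA8, HSPH1, DNAJB1, HSPB1, HSP90AA1, HSPD1, HSPE1, BAG3 and HSF1) lay between -0.36 for HSP90AA1 and 0.29 for HSPH1. The median of the 39 genes was 0.067, against 0.021 for all genes. The number of calls was 0 without any 1 of the 3 miR-181d arrays, 1 or 2 without miR-574-3p replicates 1 to 3, miR-629* replicates 1 to 3 or miR-766 replicate 1, and 20 without miR-565 replicate 1 (28.2% of all genes).

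For miR-565, 11 genes passed, beside 9.69% of all genes higher and 4.64% lower. CRYAB was higher, at log2 ratios of 1.18, 0.20 and 0.63 (mean 0.67, SE 0.16, limma adjusted p = 0.0197), as were HSPA1L at a mean of 0.42 (limma adjusted p = 0.0155) and BAG3 at 0.26 (limma adjusted p = 0.0231). The 8 lower genes were led by PTGES3, with -0.67, -0.25 and -0.24 on the 3 arrays (mean -0.39, limma adjusted p = 0.00499), and TCP1, with -0.68, -0.17 and -0.23 (mean -0.36, limma adjusted p = 0.0106). CCT3 (-0.29), HSP90AB1 (-0.27), HSPA4 (-0.27), CCT7 (-0.23), AHSA1 (-0.23) and BAG1 (-0.18) were the others. In 8 of the 11 genes replicate 1 lay farthest from 0, and in all 11 the sign was the same on all 3 arrays. The median of the 39 genes was -0.18, with 29 of 39 below 0, against 0.038 for all genes, and rose to -0.022 without replicate 1. Without that array 15 genes passed (16.3% of all genes), without replicate 2 or 3 it was 20 or 17. Among the classic heat shock genes, HSP90AA1 (-1.23, limma adjusted p = 0.071) and HSPA6 (0.30, limma adjusted p = 0.17) lay farthest from 0. With slides as a random block 0 of the 39 passed in limma, and 18 had an unadjusted p below 0.05.

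For miR-574-3p, 4 genes were lower and 0 higher, beside 2.65% and 2.82% of all genes. PTGES3 had log2 ratios of -0.33, -0.26 and -0.25 (mean -0.28, SE 0.065, limma adjusted p = 0.0263), and CCT3 of -0.20, -0.25 and -0.25 (mean -0.23, limma adjusted p = 0.0117). BAG1 (-0.17, limma adjusted p = 0.0398) and CCT7 (-0.16, limma adjusted p = 0.02) were the others. All 4 were also below 0 on every array of the other miRNAs. The classic heat shock genes lay between -0.21 for HSP90AA1 and 0.27 for HSPE1, and HSF1, at 0.18 (SE 0.055, limma adjusted p = 0.0785), missed. The median of the 39 genes was -0.012, against 0.0079 for all genes. The calls numbered 14 without miR-565 replicate 1 (23.1% of all genes), 0 or 1 without a miR-574-3p array and 0 in limma with slides as a random block, where 8 had an unadjusted p below 0.05.

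For miR-629*, CCT3 (-0.31, -0.29 and -0.20 on the 3 arrays, mean -0.27, limma adjusted p = 0.00583) and BAG1 (-0.28, -0.15 and -0.16, mean -0.20, limma adjusted p = 0.0164) were lower, beside 4.51% of all genes, and 0 of 39 were higher, beside 6.22%. The classic heat shock genes lay between -0.15 for HSP90AA1 and 0.33 for HSPE1. For miR-766, BAG3 was higher at 0.29, 0.26 and 0.24 (mean 0.26, limma adjusted p = 0.0488), beside 1.56% of all genes. CCT3 (-0.20, limma adjusted p = 0.0413) and BAG1 (-0.19, limma adjusted p = 0.0433) were lower, beside 0.743%. Its classic heat shock genes lay between -0.044 for HSPA6 and 0.42 for HSPD1, which had 0.30, 0.76 and 0.19 on the 3 arrays.

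The medians of the 39 genes were -0.00028 for miR-629* and -0.00091 for miR-766, against 0.028 and 0.012 for all genes. Without miR-565 replicate 1 the calls numbered 16 for miR-629* (36.0% of all genes) and 9 for miR-766 (19.5% of all genes). They numbered 1 without any 1 of the 3 miR-629* arrays. For miR-766, 0 or 1 gene remained without miR-181d replicate 2 or 3, without miR-565 replicate 2, or without any 1 array of miR-574-3p, miR-629* or miR-766. With slides as a random block, 0 genes passed in limma for either miRNA, with 4 at an unadjusted p below 0.05 for miR-629* and 0 for miR-766. CCT3 was thus called for all 5 miRNAs and BAG1 for all but miR-181d, and all 5 comparisons share 1 dye assignment.

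A dye effect shared by all arrays cannot enter a difference between miRNAs. When the 5 miRNAs were compared with each other, 0 of the 39 genes passed (limma F test, 4 at an unadjusted p below 0.05), beside 0.539% of all genes. Without miR-565 replicate 1, DNAJA1 passed alone (limma adjusted p = 0.0147), beside 3.62% of all genes. With slides as a random block, 23 genes and 30.6% of all genes passed. The test thus depends on how array and slide are treated.

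DNAJA1, an HSP40 that feeds clients to cytosolic HSP70, had log2 ratios of -0.23, -0.20 and -0.15 on the miR-574-3p arrays and of 0.10, 0.14 and 0.061 on the miR-181d arrays. The 8 arrays of the other miRNAs apart from miR-565 replicate 1 lay between -0.10 and 0.026, with no overlap with either. On miR-565 replicate 1 it was at -1.25. Relative to the mean of the other miRNAs, and without that array, miR-574-3p was lower by 0.18 (SE 0.034, limma adjusted p = 0.00721, beside 5.74% of all genes) and miR-181d higher by 0.19 (SE 0.034, limma adjusted p = 0.0372, beside 0.526% of all genes). With all 15 arrays the differences were -0.080 (limma adjusted p = 0.952) and 0.29 (limma adjusted p = 0.771). Within slides, miR-574-3p lay 0.14 below miR-565 on slide 2 and 0.12 below miR-629* on slide 3 (log2 differences -0.14 and -0.12). On slide 1 the only array beside miR-181d was miR-565 replicate 1.

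CRYAB gave the widest spread of any of the 39 genes over the 14 arrays (SD 0.32), at low signals (53.5 on average). Its log2 ratios were -0.50, -0.40 and -0.31 for miR-574-3p, and the lowest of the other 12 arrays was at -0.17. Relative to the mean of the other miRNAs, miR-574-3p was at -0.61 with all arrays (SE 0.18, limma adjusted p = 0.15) and at -0.55 without miR-565 replicate 1 (SE 0.13, limma adjusted p = 0.0281). Within slides the difference was -0.87 from miR-565 on slide 2 and -0.42 from miR-629* on slide 3. The sign was thus the same on both slides that hold miR-574-3p.

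To see in which cells such values arose, each channel was compared with the mean of that dye over the other 4 miRNAs, after quantile normalization within the dye. In the cells given the miR-574-3p antagomir, 4 of the 39 genes passed, beside 8.91% of all genes. CRYAB had signals of 64.88, 70.45 and 64.13 there, against 43.55 to 55.14 on the other 12 arrays, and was higher by 0.44 on the log2 scale (SE 0.074, limma adjusted p = 0.00076). DNAJA1, at 23810, 23640 and 23430 against 20730 to 23150, was higher by 0.11 (SE 0.033, limma adjusted p = 0.0493). For both genes the 3 arrays lay above all others.

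HSF1 was lower in the same cells, at 14570, 14620 and 14680 against 15020 to 16850 (log2 difference -0.12, SE 0.032, limma adjusted p = 0.0247). HSPB1 was lower too (log2 difference -0.17, SE 0.036, limma adjusted p = 0.00613), with 28090, 28000 and 27060 against 28090 to 34520, so that its ranges met. Without miR-565 replicate 1 the call of DNAJA1 was lost (limma adjusted p = 0.0655) and the other 3 remained. Without 1 of the miR-574-3p arrays 1 or 2 calls were left, and 1 was left when arrays were scaled to their 75th percentile. Within slides, the antagomir signal of CRYAB on miR-574-3p arrays was higher by 0.55 and 0.35, and that of HSPB1 lower (log2 differences -0.17 and -0.19).

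In the other antagomirs the chaperone genes hardly stood out. CCT4 was higher with the miR-565 antagomir, at 127400, 109100 and 114800 against 88990 to 110900, so that the ranges overlapped (log2 difference 0.25, SE 0.061, limma adjusted p = 0.0405), beside 2.94% of all genes. It was not called without miR-565 replicate 1, nor without 8 of the other arrays taken 1 at a time, among them both remaining miR-565 arrays. For the antagomirs of miR-181d, miR-629* and miR-766, 0 genes passed in limma, with 10, 3 and 1 at an unadjusted p below 0.05, beside 2.28%, 0.909% and 4.58% of all genes. Without miR-565 replicate 1, HSPE1 passed for miR-766, at 82170, 78830 and 97210 against 66340 to 79240 on the other arrays but that one (log2 difference 0.25, limma adjusted p = 0.0253). In the mimic channel 0 of the 39 genes passed for any miRNA in limma, with 14 at an unadjusted p below 0.05 for miR-565 and 0 for each of the others. Of all genes, 0.293% passed for the miR-766 mimic and 0 genes for the other 4. With slides as a random block, 20 genes passed for the miR-181d mimic and 11, 4 and 5 for the antagomirs of miR-181d, miR-629* and miR-766. Of all genes, 22.5% passed for that mimic and 35.9%, 18.6% and 32.4% for those antagomirs.

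**Figure D4:**
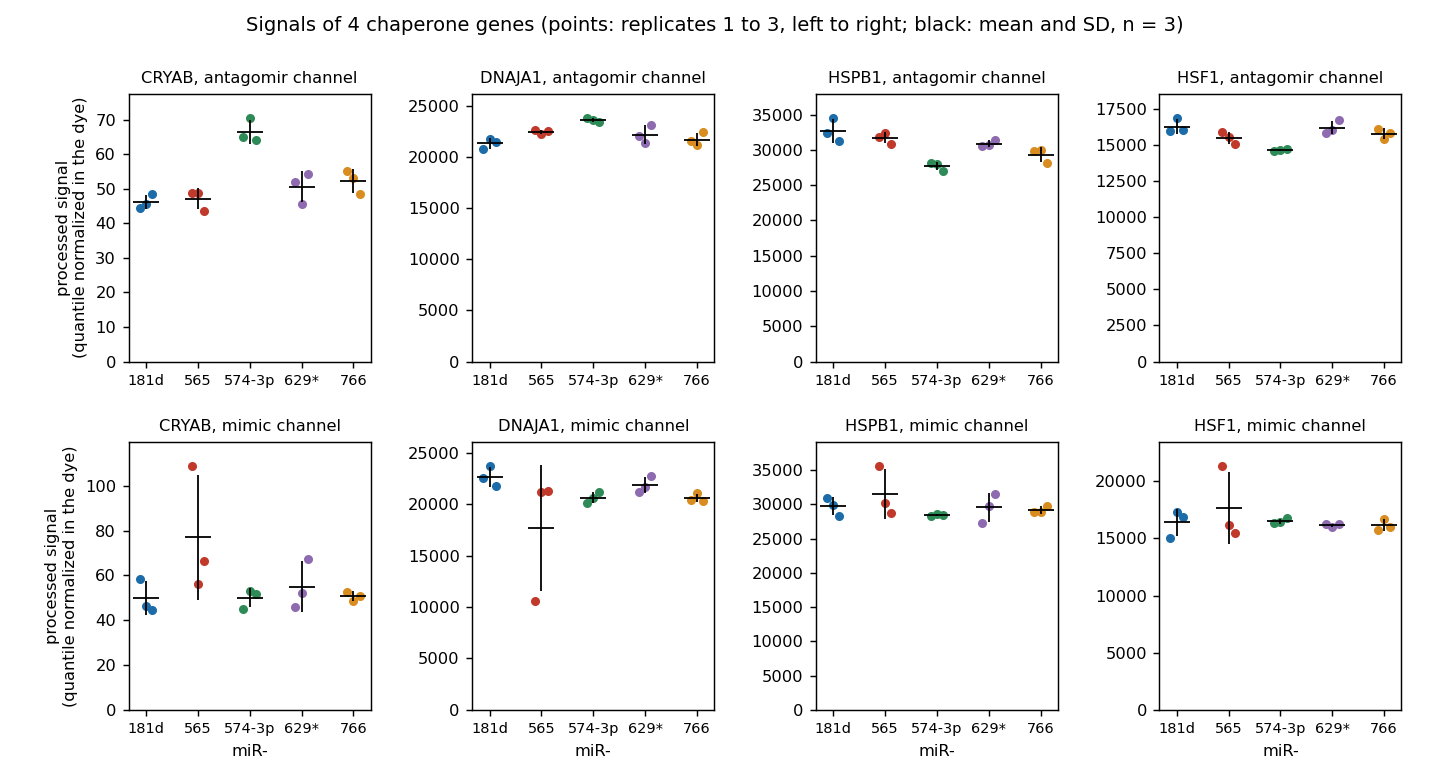
Processed signal, quantile normalized within the dye, of CRYAB, DNAJA1, HSPB1 and HSF1 in the antagomir channel (top) and the mimic channel (bottom), by miRNA, with the replicates as points and the mean and SD in black (n = 3 each). In the antagomir channel the miR-574-3p arrays are the highest for CRYAB (64.13 to 70.45) and DNAJA1 (23430 to 23810) and the lowest for HSF1 (14570 to 14680), and in the mimic channel miR-565 replicate 1 lies apart for all 4 genes.

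Several genes had more than 1 probe, and these did not always give the same value. The probes whose readings matter most are printed with their positions in NCBI36 as the files give them, in lower case, and the gene of each is the one the array names.
DNAJA1, brightest probe (chr9:33028754-33028813, plus strand): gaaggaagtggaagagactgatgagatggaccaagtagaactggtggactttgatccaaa
DNAJA1, another probe (chr9:33026682-33027066, plus strand, a span longer than the probe): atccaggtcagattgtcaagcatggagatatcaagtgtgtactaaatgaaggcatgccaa
CRYAB, single probe (chr11:111284786-111284845, minus strand): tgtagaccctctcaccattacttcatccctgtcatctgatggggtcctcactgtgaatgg
HSP90AA1, brightest probe (chr14:101619206-101619265, minus strand): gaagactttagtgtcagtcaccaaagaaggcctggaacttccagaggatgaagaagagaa
HSP90AA1, another probe (chr14:101617856-101618204, minus strand, a span longer than the probe): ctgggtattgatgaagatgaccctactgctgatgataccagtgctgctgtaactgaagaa
HSPA1A, a dimmer probe (chr6:31892373-31892432, plus strand): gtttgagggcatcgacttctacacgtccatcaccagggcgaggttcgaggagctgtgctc
The second DNAJA1 probe was also lower for miR-574-3p than for the other miRNAs without miR-565 replicate 1 (log2 difference -0.16, SE 0.038, limma adjusted p = 0.0273), but at 0.18 for miR-181d it missed (limma adjusted p = 0.0573). The third DNAJA1 probe gave -0.048 (limma adjusted p = 0.55) for miR-574-3p and 0.087 (limma adjusted p = 0.326) for miR-181d. On miR-565 replicate 1 these 3 probes read -1.25, -1.07 and -1.09.

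HSP90AA1 had 4 probes. On miR-181d replicate 1, the brightest probe read -0.82 and the probes not printed here -0.84 and -0.88, while the second probe printed above read -0.042. On the other arrays of miR-181d the brightest was at -0.17 and -0.11. On miR-565 replicate 1, in contrast, all 4 probes were low (-2.88 to -3.40). The low value of HSP90AA1 for miR-181d thus rests on 1 array and on 3 of 4 probes.

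The probes of HSPD1 gave means of 0.26 and -0.13 over the 14 arrays, those of FKBP4 -0.047 and -0.35, and those of PTGES3 -0.21 to 0.067. Those of HSPA1A ran from -0.0026 for the brightest to -0.26 for the dimmer probe printed above. In each case the brightest probe was the one used for the gene. A sign shared by the arrays did not hold for every probe of BAG3, HSPA4, PTGES3, CCT5, HSPD1 and DNAJB6. On the 14 arrays the second probe of BAG3 ran from -0.066 to 0.30, that of HSPA4 from -0.11 to 0.098 and that of CCT5 from -0.11 to 0.25. A dimmer PTGES3 probe ran from -0.17 to 0.31. The dimmest DNAJB6 probe ran from -0.20 to 0.38, while another stayed at 0.074 to 0.37. HSPA1A and HSPA1B are nearly identical in sequence, so that the HSPA1A probes may read both. A pair of HSPA8 probes with the same sequence differed by 0.071 on average (SD 0.051 over all 15 arrays, from -0.011 to 0.14). This shows how far spots of 1 sequence can lie apart on these arrays. Mean ratios below that size, such as those of HSF1 without miR-565 replicate 1 (0.063) or FKBP4 (-0.049), are within it.

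**Figure D5:**
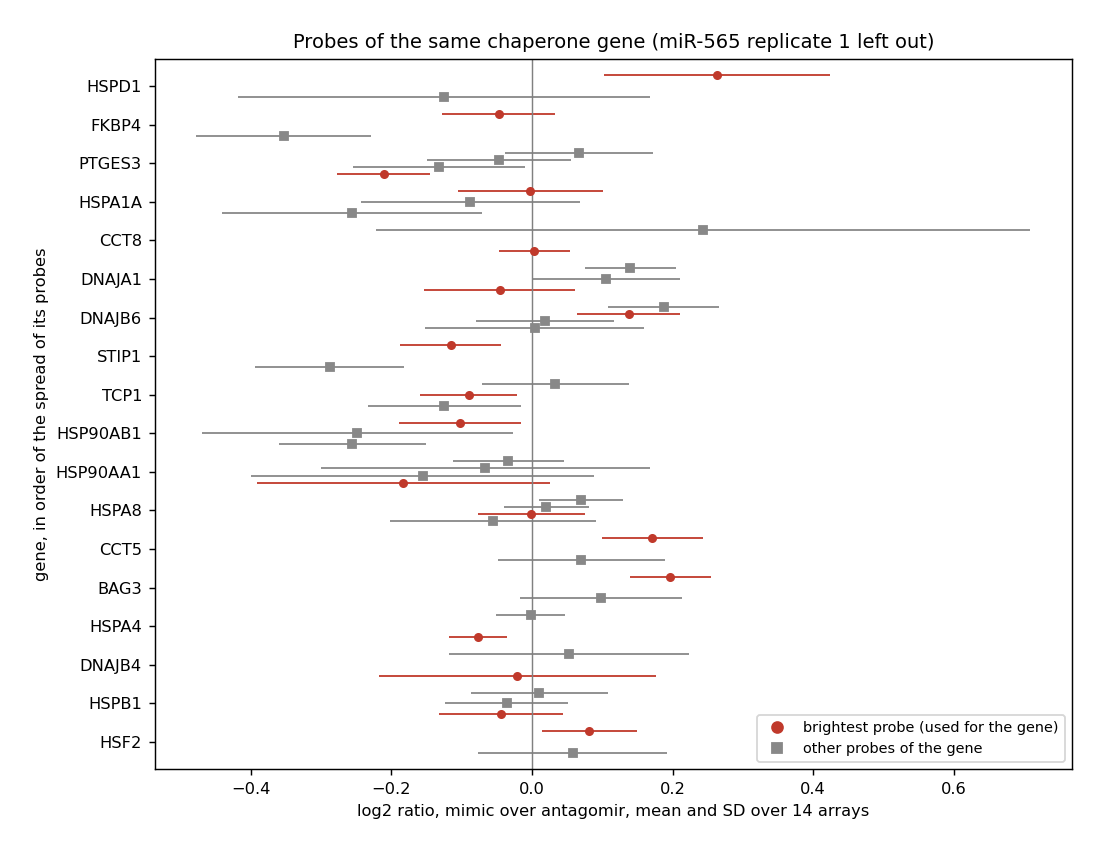
Mean and SD over 14 arrays (miR-565 replicate 1 left out) of the log2 ratio of each probe, for the chaperone genes with more than 1 probe. The brightest probe, used for the gene, is in red. The probes of HSPD1 lie on both sides of 0 (0.26 and -0.13), while all 4 of HSP90AA1 lie below it.

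The promoters were searched for the heat shock element, since HSF1 is one of the 39 genes and many of the others are its textbook targets. RefSeq (GRCh38.p14) promoters, from 250 bases before to 50 after the start, were given for 36 of the 41 genes. A match to 3 units, GAANNTTCNNGAA or TTCNNGAANNTTC, stood in 7 of the 36 (19.4%), namely DNAJA1, DNAJB6, HSP90AA1, HSP90AB1, HSPA6, HSPA8 and HSPD1. It stood in 0.608% of all 27305 genes with a promoter, where a gene counted if any of its promoters matched. The 2 patterns are reverse complements of each other, so that both strands were read, and they can overlap. With 2 units, GAANNTTC or TTCNNGAA, it was 20 of the 36 (55.6%) and 16.2% of all genes with a promoter. A stretch around the match, which is in capitals, is shown for 4 genes whose ratios on miR-565 replicate 1 lay far apart.
HSP90AA1 (chr14:102087106-102087146, minus strand): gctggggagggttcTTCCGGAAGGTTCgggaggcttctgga
HSPA6 (chr1:161524452-161524492, plus strand): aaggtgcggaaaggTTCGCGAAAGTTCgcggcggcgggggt
HSPA8 (chr11:123062165-123062205, minus strand): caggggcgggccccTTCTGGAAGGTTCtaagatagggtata
HSPD1 (chr2:197500059-197500090, minus strand): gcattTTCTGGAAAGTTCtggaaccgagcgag
The matches begin 88 bases before the start for HSP90AA1, 74 for HSPA6, 55 for HSPA8 and 245 for HSPD1. On miR-565 replicate 1 the log2 ratios of these 4 genes were -3.40, 0.94, -0.65 and -1.17. On that array the 7 genes with 3 units had a median of -0.65, from -3.40 to 0.94, and the 28 other measured genes with a promoter a median of -0.39, from -1.79 to 0.71. Over the 14 other arrays the 7 genes with 3 units had a median mean ratio of -0.001, from -0.18 to 0.26, and those 28 others of -0.012, from -0.23 to 0.25. A match of letters is not evidence of binding, and no binding was measured.

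Beyond the 41 genes, 65 other chaperone genes were tested, and 35 of them had a mean ratio that passed, 12 higher and 23 lower, beside 23.1% and 18.5% of all genes. With slides as a random block, 0.239% of all genes passed for the mean. Of the endoplasmic reticulum chaperones, 8 of 13 were lower and 2 higher (median log2 ratio -0.12, against 0.014 over all genes), to be read against the same shares. PDIA3, a disulfide isomerase of glycoproteins, was the lowest of them at -0.36 (SE 0.043, limma adjusted p = 3.463e-05). Among the HSP40 proteins outside the 41 genes, 4 of 18 were higher and 3 lower, with DNAJA4 at 0.44 (limma adjusted p = 0.0119) on signals of 4.36 to 16.97. BAG4, a relative of BAG1 and BAG3, was higher at 0.35 (limma adjusted p = 2.631e-05). PPP5C, a phosphatase bound to HSP90, was lower at -0.32 (limma adjusted p = 0.000275), and of the 10 other HSP90 cochaperones 4 were lower and 1 higher, or 4 lower and 4 higher without miR-565 replicate 1.

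By miRNA, 7 of the 65 genes passed for miR-181d, 12 for miR-565, 5 for miR-574-3p, 9 for miR-629* and 2 for miR-766. Of all genes, 6.36%, 14.3%, 5.47%, 10.7% and 2.30% passed in the same order. For miR-574-3p all 5 were lower, namely PFDN5, a prefoldin that hands chains to CCT (-0.37, limma adjusted p = 0.000537), ST13, which stabilizes HSP70 on its client (-0.34, limma adjusted p = 0.00625), HSPA5, the HSP70 of the endoplasmic reticulum (-0.32, limma adjusted p = 0.0173), GRPEL1, a mitochondrial nucleotide exchange factor (-0.28), and DNAJB11, the HSP40 partner of HSPA5 (-0.18). In the cells given the miR-574-3p antagomir, 9 of the 65 genes passed, 6 higher and 3 lower than with the other antagomirs, beside 8.91% of all genes. Of the 5 genes above, the signals of PFDN5 (log2 difference 0.28, limma adjusted p = 0.000146), HSPA5 (0.25, limma adjusted p = 0.023) and ST13 (0.13, limma adjusted p = 0.0401) were higher. Among the genes that passed, the 5 farthest from 0 for miR-181d were PPP5C (-0.53), PDIA3 (-0.37), BAG4 (0.36), CDC37 (-0.30) and ST13 (-0.28). For miR-565 they were, again among those that passed, DNAJA4 (1.02), HSPB9 (0.82), DNAJC18 (0.46), PPP5C (-0.42) and DNAJC10 (-0.41), and for miR-766 only PDIA3 (-0.45) and PFDN5 (-0.22) passed. Genes that did not pass reached 0.69 for miR-181d, -0.59 for miR-565 and 0.41 for miR-766.

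HSBP1, a small protein that binds HSF1 and restrains it, stood out for miR-629*. Its log2 ratios were -0.38, -0.41 and -0.43 on the miR-629* arrays and between -0.067 and 0.32 on the other 12, with no overlap. The mean of -0.41 (SE 0.044, limma adjusted p = 0.00051) came with a signal in the antagomir channel of 31340, 31520 and 32270, against 21750 to 24630 on all other arrays. In that channel the log2 difference from the other antagomirs was 0.49 (SE 0.034, limma adjusted p = 5.709e-07). HSBP1 was the only one of the 65 genes whose ratio differed between the 5 miRNAs with all 15 arrays (limma F test, adjusted p = 0.00175), and without miR-565 replicate 1 there were 3. The miR-574-3p array on the same slide had an antagomir signal of 23240, within the range of the other slides. Next among the genes that passed for miR-629* were SERPINH1, the collagen chaperone (-0.41, limma adjusted p = 0.0396), BAG5 (-0.40), DNAJC18 (0.39) and BAG4 (0.39). HSF1 itself had log2 ratios of 0.046, 0.019 and -0.046 on the miR-629* arrays.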

How the data were processed

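RNA from A549 cells was hybridized to 15 two-color Agilent whole human genome arrays, 3 for each of 5 miRNAs, with the mimic in Cy5 and the antagomir in Cy3. The authors scanned the arrays with Agilent Feature Extraction 9.5.3.1 (probe positions in NCBI36), and the deposited processed signal intensity of each channel had been background corrected and dye normalized within the array by that software. The deposited log10 ratio of Cy5 to Cy3 and the error score of that ratio were made from these signals, and the series' table of values equals the log10 ratio of the arrays (largest difference 0). The study's own software for differential expression was not used here. Per array 1639 control spots were left out, and 2296 outlier spots over all arrays. There were 0 saturated spots, 41000 probes and 30484 gene names.

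Log2 ratios were taken from the processed signals of both channels, and spots of a probe were averaged. The deposited log10 ratios, turned into log2, entered only the alternatives with the error score and the series' table. A probe was tested if at least 3 arrays had it well above background in 1 of the channels or both (31357 probes for the ratio). All 15 arrays entered 1 fit with a mean per miRNA (limma 3.58.1 with R 4.3.3, trended variance, Benjamini-Hochberg over all probes tested, called at an adjusted p below 0.05). Neither slide nor replicate was a term of this fit. A gene is given by its brightest probe. Channels were quantile normalized within the dye and each miRNA set against the mean of the others. The steps were tested on simulated data. Samples were grouped by the labels.

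The 41 genes and the lists of other chaperones were chosen with earlier results of these data known. In each comparison 12 classic heat shock genes were named, and the called genes, at most 10 by size (BAG1 for miR-565, the smallest of 11, is outside this rule). Of other chaperones at most 5 called were named. Genes named for their value on miR-565 replicate 1, for single probes, for a heat shock element or for the difference of 1 miRNA from the others, and the family members named in the mean over all miRNAs without having passed, were chosen after their values were seen.

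Same-numbered arrays of different miRNAs deviated from their means with correlations of -0.40 to 0.54 (median 0.057), over 0.1 in 13 of 30 pairs. For arrays with different numbers these ran from -0.61 to 0.52 (median -0.046), over 0.1 in 17 of 60 pairs. The ranges overlap, so that these values do not settle whether the replicate numbers pair the arrays, and the main fit used no pairing. Alternatives were normexp background correction with loess, median centering, weighting by the error score, blocks for replicate number and slide, no filter on dim probes, the mean of a gene's probes, 75th percentile scaling of the channels, fits to the 3 arrays of 1 miRNA, and leaving out each array. The fits without miR-565 replicate 1 were described in full after the data were seen.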

Additional observations from a re-analysis of the deposited data

Results flagged for a closer look

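Differences between miRNAs were found for 2 of the 39 genes in the fit without miR-565 replicate 1 and without a slide block. With all 15 arrays and no slide block, 0 of the 39 genes passed the limma F test (4 at an unadjusted p below 0.05). With slides as a random block 23 did, beside 30.6% of all genes. For DNAJA1, the largest difference of the log2 ratio between any 2 miRNAs was 0.29, between miR-181d and miR-574-3p. Its log2 ratio for miR-181d exceeded the mean of the others by 0.19, and for miR-574-3p the difference was -0.18. For CRYAB, the log2 ratio for miR-574-3p differed from the mean of the others by -0.55. The difference of 0.29 between miR-181d and miR-574-3p was not tested as a pair. The limma F test over all miRNAs, without miR-565 replicate 1, gave DNAJA1 an adjusted p of 0.0147. For the differences from the mean of the others, the limma adjusted p for DNAJA1 was 0.0372 with miR-181d and 0.00721 with miR-574-3p. For CRYAB with miR-574-3p it was 0.0281. CRYAB was measured on dim signals, and 1 of 3 DNAJA1 probes did not pass for miR-574-3p. For miR-181d only the brightest DNAJA1 probe passed. The others gave 0.18 (limma adjusted p = 0.0573) and 0.087 (limma adjusted p = 0.326). What sets miR-565 replicate 1 apart was not tested.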

How the results depend on the processing

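Direction was followed only for the log2 values of genes called in the main fit and for the DNAJA1 and CRYAB differences. None of these changed its sign under the alternatives run. Medians were not among them, and that of the 39 mean ratios went from -0.037 to 0.00059 without miR-565 replicate 1. Of the counts of called genes, 293 stayed within 1.5 times their main value and 77 did not. Of the values for named genes, 928 kept their side of the threshold, 225 fell below it, 4 passed it and 5 moved beyond the spread. The error-weighted mean left each count of called genes within 1.5 times its value. So did the series' table, which holds ratios of the same processed signals and is thus no separate check. Fitting slides as a random block (correlation 0.73 within a slide) gave 0 called genes for the mean, against 17, and 0 for the ratio of miR-565, against 11, of miR-574-3p, against 4, of miR-629*, against 2, and of miR-766, against 3. It gave 23 against 0 for the test between miRNAs, 11, 4 and 5 against 0 for the antagomirs of miR-181d, miR-629* and miR-766, and 20 against 0 for the miR-181d mimic. Of all genes, 30.6% passed with that block in the test between miRNAs, 35.9%, 18.6% and 32.4% for those antagomirs, and 22.5% for that mimic. The DNAJA1 difference for miR-181d became 0.98 (limma adjusted p = 0.0125), beside 1.35 within slide 1, against miR-565 replicate 1 alone. The cause was not tested. Slides as a fixed block gave 27, 28, 22 and 15 for miR-181d, miR-565, miR-574-3p and miR-629*. No value was given for miR-766, the mean or the test between miRNAs. In that fit slide 1 was tied to the other slides only through miR-565 replicate 1 against the other miR-565 arrays. That array therefore bears on each of these counts. Fits to the 3 arrays of 1 miRNA gave 7 for miR-181d, 0 for miR-565, 17 for miR-574-3p, 16 for miR-629* and 1 for miR-766. The share of all genes called was counted only with slides as a random block and without miR-565 replicate 1. The counts under the other alternatives therefore cannot be read as particular to the chaperone genes. The replicate block moved miR-766 from 3 to 0 calls and the miR-181d antagomir from 0 to 1, and since 6 of 15 arrays correlated best with their own number, the block rests on a shared number only. It moved no other count by more than 1.5 times. Normexp with loess gave 2 for miR-574-3p and 5 for miR-629*, median centering 5 for miR-629*, and the mean of a gene's probes 4 for miR-629* and 1 for miR-766. The count was 1 for the miR-574-3p antagomir with 75th percentile scaling and 0 for the miR-565 antagomir without the filter on dim probes. With 1 array left out, counts ran from 0 to 20 for miR-181d, 11 to 20 for miR-565, 0 to 14 for miR-574-3p, 1 to 16 for miR-629*, 0 to 9 for miR-766 and 15 to 28 for the mean, each highest without miR-565 replicate 1 except for miR-565 itself, where it was highest without replicate 2. They ran from 0 to 1 for the test between miRNAs and for the antagomirs of miR-565 and miR-766, and from 1 to 5 for that of miR-574-3p, and stayed at 0 for the antagomirs of miR-181d and miR-629* and for all mimics. With 1 array left out, the difference of miR-574-3p from the others ran from -0.18 to -0.031 for DNAJA1 and from -0.67 to -0.55 for CRYAB, and that of miR-181d from 0.19 to 0.34 for DNAJA1. Signal over background was least for CRYAB, HSPA6 and HSPA1L, with mean signals of 53.5, 58.4 and 69.7.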
